A study of Mus musculus with 3 samples.

Results

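The mouse major histocompatibility region, called H2, was described here as 357 bins of 10 kb, all bins of chr17:33900000-37500000 (mm9) except 3 left out at chr17:35630000-35660000. The bins were chosen by position and not by their values, and were set against the other 8868 bins of chromosome 17. In the whole genome 242198 bins held a di-tag end in any library. The libraries are Capture Hi-C, in which cross-linked chromatin is cut with HindIII, ligated, and enriched for chosen fragments with baits. A di-tag is taken to join a pair of loci that lay close together in the nucleus. Per the study, spurious ligations tend to join different chromosomes, so many such di-tags relative to those within chromosomes point to a poor library. How many di-tags here were spurious was not tested. All 3 libraries (Samples 3, 4 and 5) carry the cell type label of embryonic stem cells of strain C57BL/6, with no genotype change, treatment or time stated. Nothing says whether they came from separate cultures, so differences between these libraries may be technical. The permutation p-values speak only for these libraries, and each binomial p-value was computed within a single library. The source label of Sample 3 names foetal liver cells instead, against its own cell type label, while the study's text describes all 3 as embryonic stem cells. Which label is right was not checked here.

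The H2 region holds the genes whose products show peptides to T cells. Class II genes (H2-A, H2-E, H2-O and H2-DM) encode surface receptors and loading factors of antigen-presenting cells. Class I genes (the K, D, Q, T and M families) encode receptors found on most cells and relatives with narrower roles, and lie in separate clusters made by repeated gene duplication. Between class II and the D and Q genes lies the central part, sometimes called class III, among the most gene-dense stretches of mammalian genomes, with complement, heat shock and tumour necrosis factor genes.

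The duplicated class I genes are alike in sequence, and the mapping kept only reads with a single best place in the genome. RefSeq promoters (GRCm38.p6, the 250 bases before each start, no coordinates taken) were compared for protein-coding genes from H2-K2 to H2-M2. At least 90% identity with the promoter of another gene of the stretch was found for 3 of 7 class I K, D and Q genes, 2 of 4 T genes and 4 of 12 M genes. The same held for 0 of 8 class II genes, 2 of 44 genes of the central part (the heat shock genes Hspa1a and Hspa1b) and 6 of 71 other genes. Genes outside the central part were grouped by symbol, so class I genes under other symbols would count among the other genes. Those 6 were Btnl4, Btnl6, Gm10499, Gm11127, Gm7030 and Gm8909, and Gm10499 was the best match of H2-Q2. A pair from the Q family and a pair from the M family are shown as examples of such near copies, 5′ to 3′, with the longest run shared by each pair in capitals.
H2-Q6: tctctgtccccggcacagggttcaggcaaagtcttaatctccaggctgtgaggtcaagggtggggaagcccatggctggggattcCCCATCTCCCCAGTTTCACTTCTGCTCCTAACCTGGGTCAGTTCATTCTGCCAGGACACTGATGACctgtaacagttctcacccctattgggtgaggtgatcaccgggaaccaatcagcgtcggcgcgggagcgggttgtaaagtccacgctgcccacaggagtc
H2-Q7: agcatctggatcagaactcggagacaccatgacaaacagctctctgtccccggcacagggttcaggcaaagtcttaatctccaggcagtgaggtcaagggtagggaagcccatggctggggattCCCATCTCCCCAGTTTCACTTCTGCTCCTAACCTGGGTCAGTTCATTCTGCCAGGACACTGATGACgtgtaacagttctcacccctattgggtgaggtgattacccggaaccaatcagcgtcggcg
H2-M10.3: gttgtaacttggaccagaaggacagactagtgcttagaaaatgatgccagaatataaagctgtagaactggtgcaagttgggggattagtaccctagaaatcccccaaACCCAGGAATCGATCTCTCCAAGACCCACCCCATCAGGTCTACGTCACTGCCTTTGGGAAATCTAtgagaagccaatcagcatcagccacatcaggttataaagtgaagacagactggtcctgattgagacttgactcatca
H2-M10.5: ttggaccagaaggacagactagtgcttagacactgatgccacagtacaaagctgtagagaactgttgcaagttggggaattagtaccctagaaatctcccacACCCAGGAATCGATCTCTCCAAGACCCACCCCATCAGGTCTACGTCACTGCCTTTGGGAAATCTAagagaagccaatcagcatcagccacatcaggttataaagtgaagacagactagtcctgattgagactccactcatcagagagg
The Q6 and Q7 promoters were 97.2% identical over their aligned part and shared a run of 66 bases. The M10.3 and M10.5 promoters were 93.9% identical with a shared run of 65 bases. Whether such likeness lowered the number of listed di-tags was not tested.

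Sample 3 stands apart from the other libraries, with 52.0% of all its di-tags in trans (ends on different chromosomes) against 67.4% in Sample 4 and 71.6% in Sample 5, so most values are given by library, and means over libraries are named as such. The lists held 9376907, 8596799 and 8821161 di-tags after duplicates were removed. With 3 libraries of 1 group, the smallest p of an exact two-sided sign-flip permutation test is 0.25, and every difference below that went the same way in all 3 libraries had that value. Intervals are 95% and cover counting error only, since the di-tags carry no molecular identifiers.

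The H2 region was covered about 2 times as densely as the rest of its chromosome, and of its 6 zones the central part had the highest coverage per bin in every library. The mean bin of the region held 185, 142 and 138 di-tag ends in Samples 3, 4 and 5, where bins of the rest of chromosome 17 held 80.1, 70.6 and 72.1. The ratio was 2.31, 2.01 and 1.92 (mean 2.08 ± 0.201, SD, n = 3; exact permutation p = 0.25). Median bins differed too, at 100, 83 and 82 ends against 44, 47 and 50. Between 124 and 129 of the 357 bins belonged to the best-covered 10% of bins in the genome (34.7% to 36.1% of the region), against 10.2% to 10.98% of the bins of the rest of the chromosome.

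High coverage was not particular to H2 on this chromosome. Among 25 windows of 3.6 Mb on chromosome 17, the region was 3rd by coverage in Sample 3 and 2nd in Samples 4 and 5. The profile along the region was alike in the libraries, as a description across 357 bins that share the same fragments and baits, with Pearson's r = 0.989 and Spearman's rho = 0.987 between Samples 4 and 5, and r = 0.916 and 0.902 between Sample 3 and each of them. The set of baits was not used here, so captured bins cannot be told apart from uncaptured ones.

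**Figure D1:**
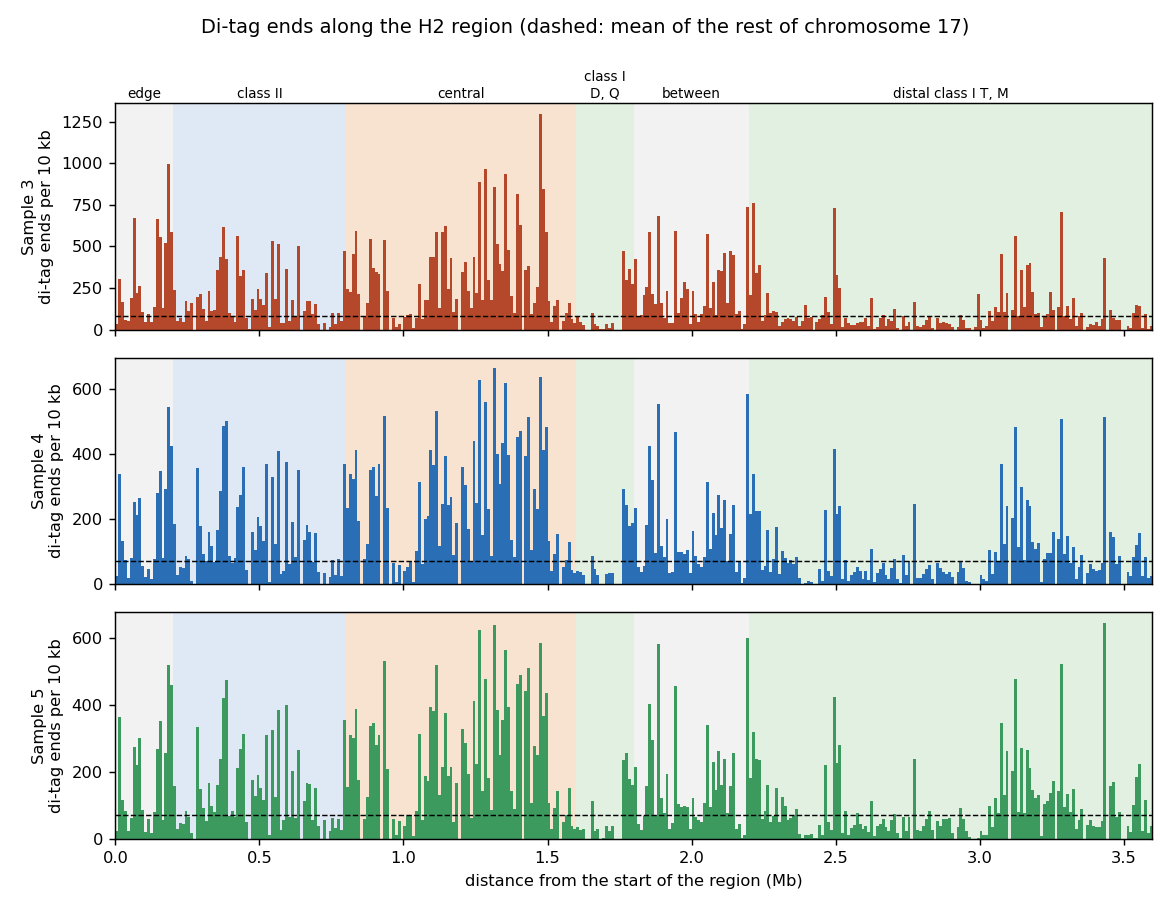
Di-tag ends in each 10 kb bin (y axis) against distance from the start of the H2 region in Mb (x axis), with 1 panel for each library, shading for the 6 zones and a dashed line at the mean of the rest of chromosome 17 (80.1, 70.6 and 72.1 ends). The tall bars cluster in the central part, and 12 of 17 bars of the class I D and Q block and 75 of 140 of the distal class I blocks lie under the dashed line in every library, as do 62.4% of bins of the rest of the chromosome.

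To describe the profile, the region was split into 18 blocks of 200 kb and these into 6 zones. The zone borders follow general knowledge of the H2 gene order and not an annotation of the build, and are accurate to about 1 block. The stretch from H2-K2 to H2-M2 also holds Trim, Olfr (olfactory receptor) and other genes. No gene was placed in a bin here, so the name of a class I zone does not mean that class I genes fill it or account for its values. The central part (blocks 5 to 8) held 297, 236 and 222 ends per bin, which is 3.70, 3.35 and 3.08 times the mean of the rest of the chromosome. The class II block (blocks 2 to 4) reached 2.19, 2.05 and 1.87 times that mean, between the central part and the distal class I blocks in every library.

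The class I zones lay lower on average (the K genes have no zone of their own here). The D and Q block (block 9, 17 of its bins) held 106, 74.9 and 69.5 ends per bin, 1.32, 1.06 and 0.964 times the mean of the rest, with medians of 36, 34 and 30. Its ends sat mostly after the left-out bins, at chr17:35660000-35700000, where bins held 273 to 473, 179 to 292 and 160 to 255 ends. None of its remaining bins held more than 98, 88 and 112 ends in Samples 3, 4 and 5. The distal T and M blocks (12 to 18) held 103, 84.2 and 89.2 ends per bin, or 1.29, 1.19 and 1.24 times the mean of the rest, with medians of 62, 50 and 56.5 where those of the rest were 44, 47 and 50. These blocks were uneven. Their means over the libraries ran from 0.469 times in block 15 to 2.15 times in block 16, where the class II block had 2.03. The stretch between these class I clusters (blocks 10 and 11), which is rich in genes outside the class I family, returned to 2.996, 2.29 and 2.17 times. The proximal edge (block 1) stood at 3.64 times in Sample 3 and at 2.54 and 2.52 in Samples 4 and 5.

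Within the region, the central part was covered 1.98 ± 0.0675 times as densely as the other zones together and the distal class I blocks 0.476 times (SD and mean over n = 3; each exact permutation p = 0.25). These differences kept their direction when all zone borders were moved by 1 block either way. The class I D and Q block, at a mean of 0.523 times, did not: with borders moved by 1 block it stood at 1.56 or 1.22 times, since well-covered neighbours then fell inside it. The stretch between the class I clusters, at a mean of 1.22 times, turned as well, to 0.884 or 0.972 times. The class II block did not differ from the other zones in a common direction (mean 0.976 times, exact permutation p = 0.5), and stood at 1.27 or 1.08 times with borders moved and at 0.860 times with duplicates retained.

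Sparse bins were rarer in the region than elsewhere on the chromosome. Of the region's bins, 132 (37.0%) lay under the mean of the rest of the chromosome in all 3 libraries, against 5537 of 8868 bins of the rest itself (62.4%), whose values are skewed. They made up 12 of 17 bins of the D and Q block (70.6%) and 75 of 140 bins of the distal class I blocks (53.6%), above and below that background with no test of either. In the central part 17 of 80 bins were that low, in the class II block 18 of 60, and between the class I clusters 6 of 40. The longest unbroken stretch of low bins was chr17:36730000-36830000, in the distal class I blocks, with 26.5, 29.5 and 35.1 ends per bin. Runs of 70 kb at chr17:35480000-35550000 and chr17:35560000-35630000, in the D and Q block or at its border, and at chr17:37260000-37330000, in the distal class I blocks, followed (these stretches were picked after their values were seen).

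Bins without any end were about as frequent as elsewhere on the chromosome. In all libraries together 23 of 357 bins were empty (6.44%), against 495 of 8868 in the rest of the chromosome (5.58%). No empty stretch was longer than 2 bins, the first of that length being chr17:35530000-35550000. A count of 0 in a bin allows up to 3 ends per library.

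Among the blocks, block 7 in the central part (chr17:35100000-35300000) was the best covered, at 5.57, 4.79 and 4.37 times the mean of the rest. Block 15 in the distal class I part (chr17:36700000-36900000) was the least covered, at 0.510, 0.403 and 0.494 times. Neighbouring blocks 14 and 15 were the only blocks under the mean of the rest in all 3 libraries, while block 18 was under it in Sample 3 alone (0.878 against 1.20 and 1.38) and block 9 in Sample 5 alone.

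By mean share of ends over the libraries, the best-covered bin of the region was chr17:35370000-35380000 in block 8, with 1298, 636 and 584 ends in Samples 3, 4 and 5, and 4 bins of the rest of chromosome 17 had a higher mean share of ends. Block 7 gave the next highest bins, chr17:35210000-35220000 (859, 664 and 639 ends), chr17:35160000-35170000 (887, 629 and 625) and chr17:35250000-35260000 (935, 618 and 563). The fifth, chr17:34080000-34090000, lay in block 1 with 993, 546 and 519 ends. The order differed by library: the first was highest in Sample 3, chr17:35210000-35220000 was highest in Sample 4, and in Sample 5 the highest was chr17:37330000-37340000 in the distal block 18, with 430, 513 and 645 ends (named after its values were seen).

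Ends in the H2 region were joined to other chromosomes less often than ends in the rest of chromosome 17. The trans share came to 42.2% (interval 41.8 to 42.6), 62.0% (61.6 to 62.5) and 67.2% (66.8 to 67.6) in Samples 3, 4 and 5. In the rest of the chromosome it was 51.5%, 68.3% and 72.6%, so the region differed from it by -9.28, -6.27 and -5.36 percentage points (mean -6.97 ± 2.05, SD, n = 3; exact permutation p = 0.25).

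The size of this difference depended on the bins compared. The 4 other windows of the same length with the highest coverage had trans shares of 43.2% to 45.4%, 61.5% to 64.9% and 66.0% to 69.1%, with the region below all 4 in Sample 3 and inside that range in Samples 4 and 5. When bins were compared within 5 classes of coverage taken from the other libraries, the difference became -7.73, -3.70 and -2.74 points. In the best-covered class, which held 151 to 158 of the region's bins, it was -6.07, -2.41 and -1.37 points. Coverage was not equal within that class, at a mean of 357, 269 and 260 ends per bin in the region against 255, 204 and 202 in the rest. It stayed below 0 in all 5 classes of all 3 libraries.

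**Figure D2:**
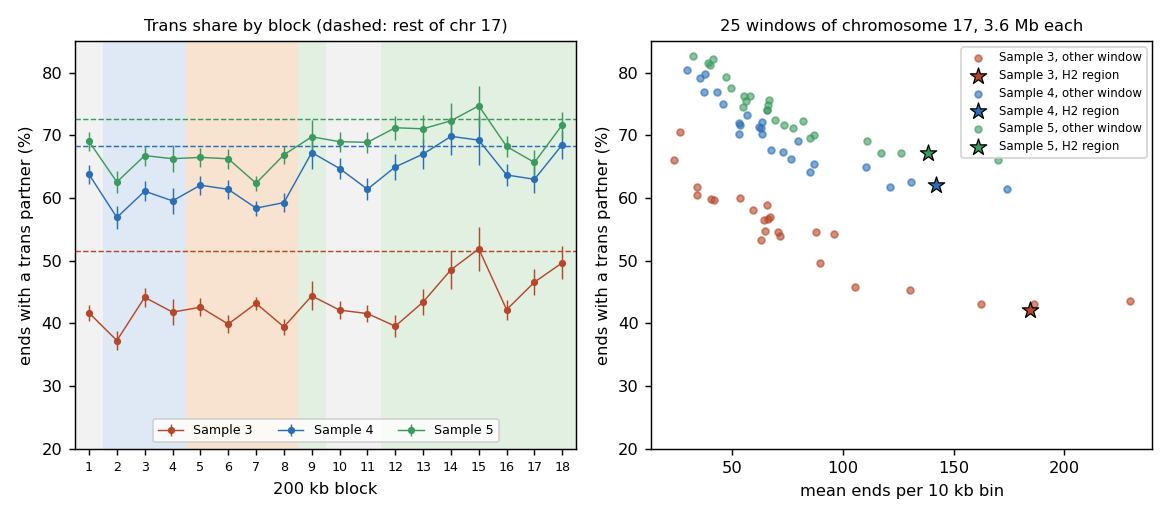
Left, percent of di-tag ends with a partner on another chromosome (y axis) in each 200 kb block (x axis) by library, with 95% counting intervals and dashed lines for the rest of chromosome 17 (51.5%, 68.3% and 72.6%). Right, the same share against mean ends per bin in 25 windows of 3.6 Mb, with stars for the H2 region at 42.2%, 62.0% and 67.2%, at the low end of the windows.

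The trans share also varied along the region. On average it was lowest in block 2, the first class II block, at 37.3%, 56.9% and 62.6%. It was highest in block 15, the least covered, at 51.9%, 69.2% and 74.7%, which is close to the rest of the chromosome in each library. By zone the shares spanned 41.1% to 44.4% in Sample 3, 59.2% to 67.3% in Sample 4 and 65.1% to 69.9% in Sample 5, with the D and Q block highest in Samples 3 and 4.

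The trans partners of the region were themselves less often well-covered bins. Of trans ends of the region, 29.3%, 24.3% and 23.8% had their partner in the best-covered 10% of bins, against 39.3%, 34.5% and 33.7% for the rest of the chromosome. The difference was -9.96, -10.2 and -9.83 points. A comparison within classes of coverage, chosen after the data were seen, used a slightly different count of well-covered partners. That count gave -10.1, -10.1 and -9.70 points over all bins, and -5.12, -4.73 and -4.40 points within classes. By partner chromosome the shares were close to those of the rest of chromosome 17, with ratios between 0.916 (chromosome 11) and 1.07 (chromosome X) on average. Chromosome 11 was the only one of 19 partners whose interval lay under 1 in every library (0.939, 0.907 and 0.902), and none lay above 1 in all 3. The intervals are not adjusted for the 19 partners.

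Cis partners were split differently in Sample 3. Partners in another bin of the region made up 26.7%, 24.9% and 20.9% of its ends in Samples 3, 4 and 5, and partners in the same bin 1.99%, 4.43% and 4.27%. Elsewhere on chromosome 17 lay 29.1% of partners in Sample 3 but only 8.63% and 7.61% in the others. Of cis partners outside the same bin, those inside the region made up 47.8%, 74.3% and 73.3%. On this measure 3, 4 and 4 of the other 24 windows were higher.

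Inside the region, contacts between different bins numbered 8796, 6311 and 5162 di-tags. To compare them with the rest of the chromosome, each count was divided by the number that the coverage of both bins would give if ends were joined at random. On this scale the region had fewer contacts than pairs of bins equally far apart in the rest of chromosome 17, whereas without the coverage term it had more. At 20 to 190 kb the ratio of region to rest was 0.859, 0.852 and 0.900 with the coverage term (mean 0.871 ± 0.0257, SD, n = 3; exact permutation p = 0.25), and 3.56, 3.12 and 3.03 as di-tags per pair of bins.

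At 200 to 990 kb the ratio was lower, at 0.733, 0.665 and 0.668 (mean 0.689 ± 0.0388), and 2.98, 2.35 and 2.16 without the coverage term. Adjacent bins stood at 0.684, 0.670 and 0.721. At 1000 to 1990 kb the libraries spread more, with 0.834, 0.653 and 0.578, and at 2000 to 3590 kb they stood at 0.807, 0.471 and 0.462, the last 2 resting on 31 and 28 di-tags. Over 1000 kb, Sample 3 thus lay nearer to the rest of the chromosome than the other libraries did.

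The region's observed over expected values were also set beside those of the other windows of the chromosome. At 20 to 190 kb, 22 or 23 of the 24 other windows had a higher value than the region in every library, and at 200 to 990 kb 23 or 24 did. The 4 best-covered other windows had values of 64.9 to 83.4 times the random number at 200 to 990 kb in Sample 3, 42.8 to 77.0 in Sample 4 and 35.4 to 62.4 in Sample 5, where the region had 60.4, 46.5 and 38.2. It lay inside the range of those windows in Samples 4 and 5 and just under it in Sample 3. At 20 to 190 kb the region lay inside their range in all 3 libraries (282 in 258 to 331, 375 in 323 to 472 and 342 in 288 to 407).

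**Figure D3:**
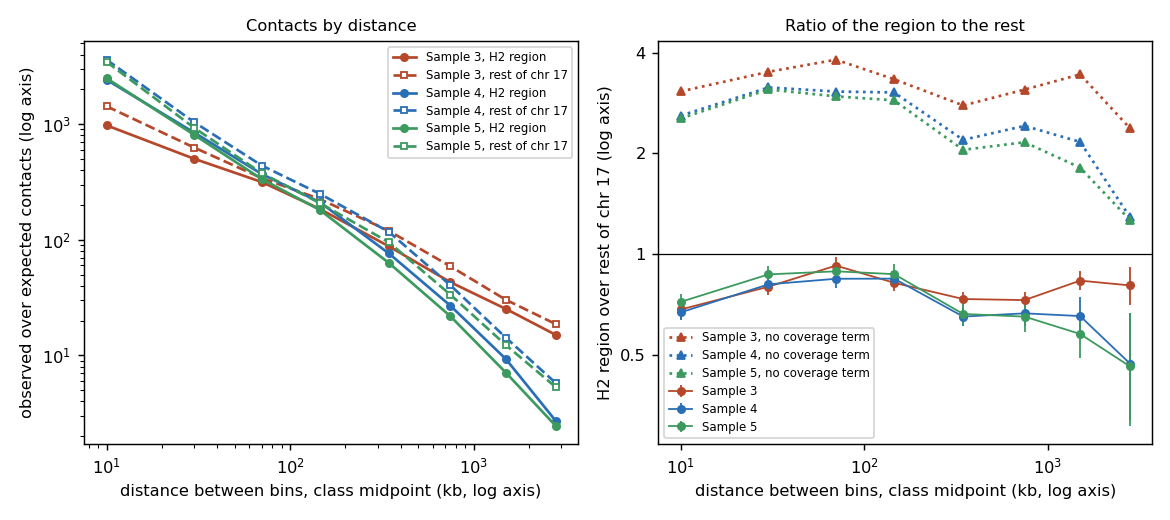
Left, observed over expected contacts (log axis) against distance between bins in kb (log axis, midpoint of each of 8 classes) in the H2 region (filled circles) and the rest of chromosome 17 (open squares) by library. Right, the ratio of region to rest with 95% counting intervals of the region's count (circles) and the same ratio of di-tags per pair of bins without a coverage term (triangles): the circles lie under 1 in all classes and the triangles above 1.

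Most contacts stayed close. Pairs inside the same 200 kb block made up 37.1%, 55.2% and 57.9% of the region's contacts, and pairs in adjacent blocks 25.4%, 25.2% and 25.2%. Relative to the rest of chromosome 17 at the same block distance, contacts within blocks stood at 0.846, 0.812 and 0.855, and those between blocks 5 or more apart at 0.663 on average, with Sample 3 highest (0.809; mean of the others 0.589). No test was run on single pairs of blocks, whose counts are small.

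The ratio differed among the zones, with no test of these differences. Contacts within the central part stood at 0.718 (interval 0.691 to 0.746), 0.628 (0.603 to 0.655) and 0.679 (0.648 to 0.711) of the rest's level, and were the most numerous, at 2595, 2243 and 1830 di-tags. Contacts within the distal class I blocks stood at 1.04, 1.13 and 1.08, at or just above the rest. Contacts within the class II block came to 0.888, 0.990 and 1.06, and within the D and Q block to 0.871, 1.44 and 1.75, the latter from 32, 52 and 48 di-tags. Most ends of the D and Q block lay in the adjacent bins of chr17:35660000-35700000. Matching by block distance leaves the distance between bins unmatched, so its ratio is no ratio at equal distance. By means over the libraries, the 6 zones stood in the reverse order of their coverage. The ratio was 0.675 in the central part (coverage 3.38 times the rest), 0.832 in the proximal edge (2.90) and 0.850 between the class I clusters (2.49). It was 1.35 in the D and Q block (1.12 times), a value not matched for the distance between bins. Whether coverage set these ratios was not tested.

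Between zones, the central part was joined less to the zones after it than to the class II block before it. Central and D and Q bins, which adjoin each other, shared 114, 49 and 43 di-tags, or 0.448, 0.327 and 0.401 of the rest's level at the same block distances. The central part and the stretch between the class I clusters stood at 0.624, 0.477 and 0.567. With the class II block on its other side, the central part reached 0.805, 0.958 and 0.857. With the distal class I blocks it had 0.695 in Sample 3 but 0.303 and 0.280 in Samples 4 and 5.

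**Figure D4:**
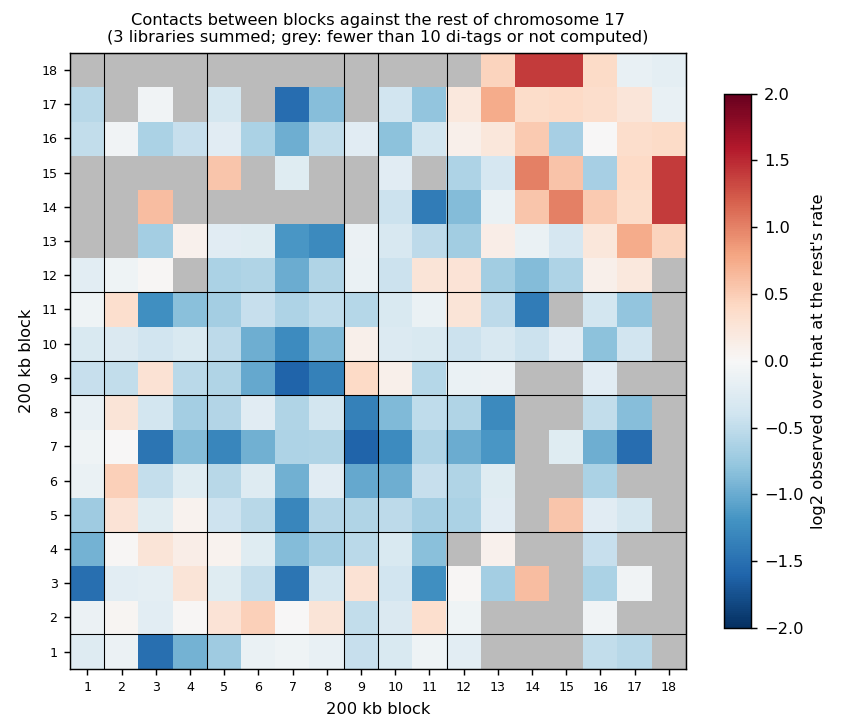
Contacts between 200 kb blocks of the H2 region (both axes, blocks 1 to 18; lines mark the zones), as the log2 ratio of the di-tags summed over 3 libraries to the number at the rate of the rest of chromosome 17 at the same block distance, after coverage. Of 170 pairs, 99 were below 0 (blue), 37 above 0 (red) and 34 had fewer than 10 di-tags (grey): 19 of the 37 red pairs lie within the distal class I blocks, others lie in or beside the class II block, and several of the darkest blue ones involve block 7.

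Contacts were also counted across each border between blocks. Those across the border at chr17:35500000, between the central part and the D and Q block, stood at 0.514, 0.415 and 0.358 of the rest's mean within 400 kb, and 4 of 438 borders of the rest of the chromosome were lower on average. On average the next lowest borders lay at chr17:35100000 (0.667, 0.492 and 0.432; 6 of 438 lower) and at chr17:36300000 (0.738, 0.536 and 0.440; 8 of 438 lower). The highest on average lay at chr17:37100000, inside the distal class I blocks, at 0.885, 1.64 and 1.58. The lowest border was the same in all 3 libraries but the order of the others was not, and in Sample 3 the border at chr17:36300000 was the median one. Over all 19 borders the medians were 0.738, 0.773 and 0.741, against 1.08 in the rest of the chromosome in each library.

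Single pairs of blocks at least 400 kb apart ran from none to several times the rest's level. The highest means were those of blocks 14 and 18 (8, 12 and 8 di-tags; 1.87, 3.63 and 2.65 times the rest), 15 and 18 (12, 8 and 9; 2.76, 2.67 and 2.46 times) and 13 and 17 (21, 14 and 8; 1.46, 2.43 and 1.47 times), all inside the distal class I blocks. These blocks were among the least covered, so the numbers at the rest's rate were small, at 4.29, 3.31 and 3.02 di-tags for blocks 14 and 18. The lowest were blocks 2 and 18 with 0 di-tags in all libraries, blocks 7 and 14 with 1, 0 and 1, and blocks 5 and 18 with 2, 0 and 0. For blocks 2 and 18 the rest's rate would give 5.10, 1.46 and 1.37 di-tags, and since a count of 0 allows up to 3, the shortfall was not detectable in Samples 4 and 5, nor was that of blocks 5 and 18, where the rest's rate would give 2.46 and 2.17.

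Pairs of bins joined more often than their coverage alone would give were frequent, here and across the genome. A binomial test on coverage with Benjamini-Hochberg adjustment called 610 of 1494 pairs of bins with at least 2 di-tags in Sample 3 (40.8%), 554 of 1037 in Sample 4 (53.4%) and 458 of 841 in Sample 5 (54.5%), where the genome-wide shares were 39.0%, 61.4% and 59.9%. The region's share was thus near the background in Sample 3 and below it in Samples 4 and 5. In the rest of chromosome 17 the shares were 39.1%, 63.4% and 62.4%. The called pairs lay most often within the central part (40.3%, 37.9% and 38.9% of the region's calls), which also held 34.8%, 39.2% and 37.9% of the region's tested pairs. Of all calls in the region, 198, 101 and 63 spanned at least 100 kb, with no matching count made elsewhere in the genome.

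Most called pairs did not recur. Of 1060 pairs called in any library, 179 (16.9%) were called in all 3, where the rest of chromosome 17 had 1093 of 10563 (10.35%), a difference that was not tested. In the region 278 pairs (26.2%) were called in both Samples 4 and 5 and 326 (30.8%) in Sample 3 alone, against 20.7% and 26.7% in the rest of the chromosome. Those in all 3 included 8 pairs at least 100 kb apart, a count not made for the rest of the chromosome. The first of these joined chr17:34080000-34090000 to chr17:34250000-34260000, from block 1 to block 2, with 6, 6 and 4 di-tags (adjusted p = 7.32e-08, 3.19e-11 and 1.21e-05 in the binomial test). At its distance of 170 kb and with its coverage 3.68, 1.08 and 0.810 di-tags would be usual. The other 4 named pairs spanned 110 to 130 kb, and 3 of them had 1 or both ends in block 7. For chr17:35160000-35170000 and chr17:35290000-35300000, the 9, 4 and 5 di-tags stood against 8.76, 4.06 and 3.40 at that distance.

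Once distance was part of the expected number, few calls remained, and their number depended on how many tests were counted. Adjusted over all possible cis pairs, the same test called 1 pair of the region in each library (0.0669%, 0.0964% and 0.119% of pairs with at least 2 di-tags, where the genome-wide shares were 0.162%, 0.123% and 0.153%), and none was called in all 3. In the rest of chromosome 17, 0 of 36 pairs called in any library were called in all 3, and 1 was called in both Samples 4 and 5. Adjusted over only the pairs with at least 2 di-tags, the test called 153, 81 and 82 pairs of the region (10.2%, 7.81% and 9.75%), where the genome-wide shares were 31.4%, 18.3% and 19.7%. Again none was called in all 3, and recurrence in the rest of the chromosome was not counted under this adjustment. That adjustment counts only pairs already seen at least 2 times, so it favours calls everywhere. Under the first adjustment the pair in Sample 3 was chr17:35870000-35880000 and chr17:35970000-35980000, between blocks 10 and 11, with 12 di-tags against 1.17 expected (adjusted p = 0.0218 in the binomial test) and fewer than 2 in each of the other libraries.

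The pair called in Samples 4 and 5 was the same one in both, chr17:36500000-36510000 and chr17:36910000-36920000, which lie 410 kb apart in the distal class I blocks (both pairs are named after their values were seen). It had 5 di-tags in Sample 4 against 0.00335 expected and 5 in Sample 5 against 0.00161 (adjusted p = 2.84e-07 and 9.30e-09 in the binomial test), but 0 in Sample 3, which had more ends in the first bin (71 against 41 and 37). The second bin held only 10, 15 and 10 ends, so this contact took up 5 of its 15 ends in Sample 4 and 5 of 10 in Sample 5.

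The di-tags of this pair began at nearly the same places. In Sample 4 their ends lay at 36501633 to 36501644 in the first bin and 36913561 to 36913743 in the second, and in Sample 5 at 36501589 to 36501644 and 36913165 to 36914014. A di-tag joining 36501644 to 36913676 was listed in both libraries. Before duplicates were removed the pair had 5 and 6 entries, so the di-tags had hardly been copied. In the whole lists copies were common, with 49196723 and 45868446 entries in Samples 4 and 5 before removal and 8596799 and 8821161 after it. What joined these positions was not tested.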

How the data were processed

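Capture Hi-C libraries of 3 samples were analysed from the di-tag lists that the authors deposited, with a line for each di-tag that holds where its ends map and on which strand. Chromatin was digested with HindIII per the labels. Per the study's methods, reads were truncated at the ligation junction, mapped end by end, filtered for artefacts and cleared of duplicates with HiCUP (version not given in the sources used here). The submitters' processing notes name Bowtie 1.1.0 and the build mm9. Lists without duplicates were used, and lists with duplicates retained served as an alternative.

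Ends were counted in bins of 10 kb with Python 3.11.15, numpy 2.4.6, pandas 2.3.3 and scipy 1.17.1. The expected number of di-tags for a pair of bins was set by the product of their shares of ends. Pairs with at least 2 di-tags were tested with the binomial distribution over the whole genome in each library, with Benjamini-Hochberg adjustment over all possible pairs of covered bins and a threshold of 0.05, with and without the library's decay with distance. The test was checked on simulated data. Differences were tested by exact sign-flip permutation over the 3 libraries. Promoters were aligned with Biopython 1.88 with free end gaps over at least 150 bases. Named were the 5 best-covered bins, the longest empty run, the extreme blocks, the 3 highest and 3 lowest pairs of blocks, and up to 5 pairs of bins at least 100 kb apart called in all libraries. The bins, zones and rules were chosen with earlier results of these data known. No annotation of mm9 was used here.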

Additional observations from a re-analysis of the deposited data

How the results depend on the processing

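Depth limits contacts over 1000 kb, which rest on few di-tags, and single pairs of blocks. No paired analysis was possible because the labels give only 1 group, so replicate numbers link no samples across groups (region and rest were compared within each library). Of 55 alternatives other than leaving out a library, 44 kept the direction or stayed within the limits set for counts and values. The coverage ratio ranged from 1.82 (without the 1% of bins with most ends) to 2.62 (duplicates retained), and the trans difference from -4.72 to -8.03 points. With zone borders moved by 1 block towards the start or the end, the class II block stood at 1.27 and 1.08 times the other zones in place of 0.976, the D and Q block at 1.56 and 1.22 in place of 0.523, and the stretch between class I clusters at 0.884 and 0.972 in place of 1.22, because other blocks then made up each zone. Without the coverage term the distance ratios turned to 3.23 (20 to 190 kb), 2.50 (200 to 990 kb) and 2.68 (1000 to 3590 kb, 0.802 with it), since the region's bins hold more ends. The pooled 0.802 lies above both of its parts (0.688 at 1000 to 1990 kb and 0.580 over 2000 kb), because region and rest hold different mixes of distances, and is no ratio at equal distance. Expected numbers from cis ends alone put contacts within blocks at 0.685 in place of 0.838, and the cause was not tested. With adjustment over only the pairs that had at least 2 di-tags, the test with distance called a mean of 105 pairs per library in place of 1, because fewer tests were counted (genome-wide shares of 31.4%, 18.3% and 19.7%, above the region's).

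Of 63 values without 1 library, 61 kept their direction or stayed within those limits. Pairs called on coverage in all remaining libraries numbered 213 to 278 (179 with all 3; 278 without Sample 3), and pairs called with distance 0 to 1 (1 without Sample 3). Without Sample 3, the share of partners elsewhere on chromosome 17 was 8.12% in place of 15.1%.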
